A study of Mus musculus with 35 samples.

Results

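Ttr, Folr1, Clic6, Aqp1, Otx2, Kl and Slc4a5 are genes of the choroid plexus, and their transcripts were followed here through the striatum of 35 mice. The 7 genes were selected on an earlier reading of these same values, in which 1 mouse, named GU4, stood apart from the others, so the high level of these genes in GU4 is what chose them and is given as a description with no test. Of the 7 genes, 6 had a row among the 22099 genes of the deposited table, and all 6 were among the 17639 genes that passed the filter on low counts. Slc4a5 was not analysed here.

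The mice were female, 299 to 304 days old, and congenic on C57BL/6J. Htt+/+ mice carried only wild-type huntingtin alleles, and HttQ111/+ mice carried 1 knock-in allele with an expanded CAG tract, the heterozygous state of a model of Huntington's disease. Each genotype was injected weekly, into the peritoneum, from 2 to 10 months of age with saline at 4 µL/g, with control ASO at 50 mg/kg, or with Htt ASO at 50 mg/kg. An ASO is an antisense oligonucleotide; control ASO has no matching sequence in the mouse genome, and Htt ASO targets both the wild-type and the mutant transcript outside the brain. There were 6 mice in every group except Htt+/+ mice on control ASO, of which there were 5, with GU4 among them. One hemistriatum per mouse was sequenced after perfusion with buffer, the right one in 34 mice and the left one in 1 Htt+/+ mouse on Htt ASO. No gene of the choroid plexus was targeted, and the striatum lies beside the lateral ventricle, which holds a choroid plexus.

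The choroid plexus is a folded sheet of epithelium around leaky capillaries inside each brain ventricle, and it makes most of the cerebrospinal fluid. Its epithelial cells move ions and water from blood to ventricle, carry folate and hormones across, and secrete proteins into the fluid. These genes are read here as its markers, although single members are also expressed elsewhere in brain. Which cells made their transcripts in these samples was not tested. Among the 7 genes, Ttr encodes transthyretin, the secreted carrier of thyroid hormone and retinol-binding protein. Aqp1 encodes a water channel of the apical membrane, Slc4a5 a sodium bicarbonate cotransporter, and Clic6 a protein of the chloride intracellular channel family. Folr1 encodes the folate receptor that brings folate into the cerebrospinal fluid. Kl encodes klotho, a membrane protein that serves as co-receptor for the hormone FGF23 and is also shed. Otx2 encodes a homeodomain transcription factor needed for choroid plexus development and maintenance, and the letters TAATCC are the core of the site that Otx-type homeodomains bind.

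Most of the 6 transcripts moved together across mice, Clic6 least, as described further on. The stretches before their start sites were therefore searched for TAATCC on either strand. RefSeq start regions on GRCm38.p6 were at hand for 3 of the 6 genes, namely Kl, Aqp1 and Otx2, with 4 start sites for Otx2. The 250 bases before the start of Kl lie at chr5:150952357-150952606 on the plus strand, those of Aqp1 at chr6:55336049-55336298 on the plus strand, and those of the shown Otx2 start at chr14:48665110-48665359 on the minus strand. They are printed 5′ to 3′ on the strand of the gene, with any match in capitals.
Kl: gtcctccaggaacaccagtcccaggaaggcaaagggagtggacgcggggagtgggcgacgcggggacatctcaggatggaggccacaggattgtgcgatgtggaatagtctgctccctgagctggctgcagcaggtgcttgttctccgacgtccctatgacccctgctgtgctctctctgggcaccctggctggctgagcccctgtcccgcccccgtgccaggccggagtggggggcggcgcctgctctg
Aqp1: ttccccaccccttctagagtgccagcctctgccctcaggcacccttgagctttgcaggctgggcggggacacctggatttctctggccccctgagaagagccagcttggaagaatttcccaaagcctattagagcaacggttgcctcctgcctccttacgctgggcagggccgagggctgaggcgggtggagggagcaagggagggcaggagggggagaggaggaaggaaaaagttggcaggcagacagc
Otx2: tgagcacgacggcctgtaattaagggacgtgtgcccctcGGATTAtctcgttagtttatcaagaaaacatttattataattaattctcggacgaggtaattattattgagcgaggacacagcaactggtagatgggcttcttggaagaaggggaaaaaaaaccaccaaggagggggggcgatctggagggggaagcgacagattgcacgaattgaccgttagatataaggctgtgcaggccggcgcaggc
The windows of Kl and Aqp1 held no match. Of the 4 Otx2 windows, 1 held a match, on the opposite strand (GGATTA), beginning 211 bases before the start. For scale, 6.25% of the 32851 windows of this length in the table hold the same letters. A match is a description of the sequence and not a measured binding site, and a window without one says only that these letters are not in it.

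Levels are given as CPM, a gene's count scaled to a common library size after TMM scaling, which corrects library sizes for composition. Total counts per mouse ran from 32200158 to 38641924, and GU4, with 36137645 counts and a TMM factor of 0.992, was within that range. The 8 tested markers of medium spiny neurons, the main neurons of the striatum, summed to 5430 CPM in GU4 and to 3765 to 6663 CPM in the other 34 mice, so the libraries had the marker genes of the labelled tissue. One other mouse also stood apart on single genes. HO1, an HttQ111/+ mouse on saline, had 81 genes at least 2-fold above every other mouse, yet its 6 choroid plexus genes were all inside the range of the remaining mice. In bulk tissue, a difference in how many cells of a type were in the sample and a difference in RNA per cell cannot be told apart.

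**Figure D1:**
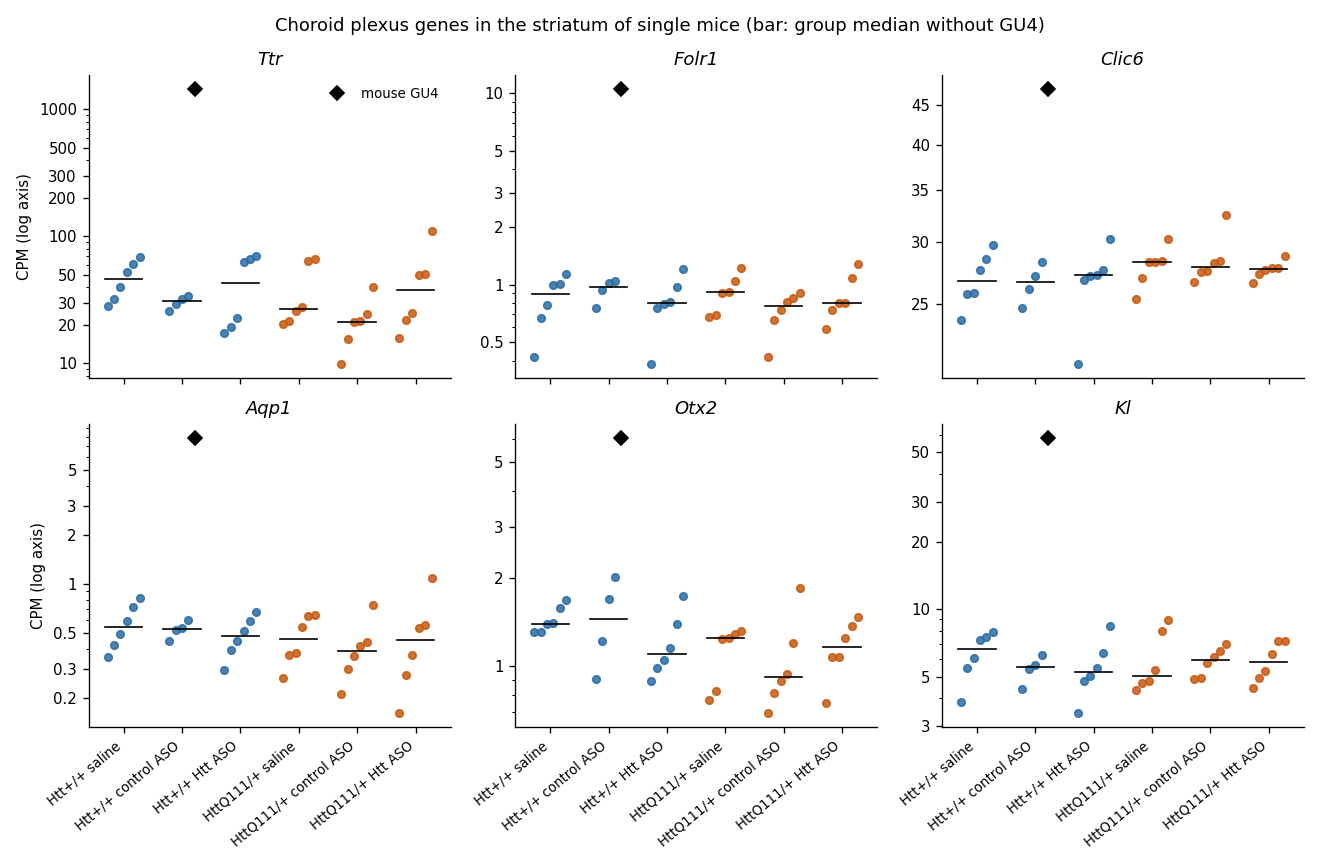
Level of each of the 6 genes in each mouse, in CPM on a log axis, by group (blue, Htt+/+; orange, HttQ111/+; black diamond, GU4; bar, group median without GU4). GU4 is the highest mouse in every panel, while the other 34 mice overlap between groups.

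Ttr, the carrier of thyroid hormone, was the transcript furthest apart in GU4. On control ASO, the 5 Htt+/+ mice had 25.9, 29.4, 32.2, 34.1 and 1457 CPM, the last being GU4. GU4 was thus 50.3 times the median of the other 34 mice (29.0 CPM) and 13.1 times the highest of them, the HttQ111/+ mouse GS1 on Htt ASO at 110.9 CPM. In the remaining Htt+/+ groups, Ttr ran from 28.5 through a median of 46.4 to 69.1 CPM on saline and from 17.3 through 43.1 to 70.1 CPM on Htt ASO. In HttQ111/+ mice it ran from 20.6 through 26.6 to 66.5 CPM on saline, from 9.90 through 21.3 to 40.3 CPM on control ASO and from 15.9 through 37.5 to 110.9 CPM on Htt ASO. The spread inside groups was wide, with the highest of the 34 mice 11.2 times the lowest, and every group overlapped every other.

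Aqp1, the water channel, was the member with the fewest reads, down to 6 counts in 1 library. The 5 Htt+/+ mice on control ASO had 0.446, 0.519, 0.539, 0.601 and 7.87 CPM, GU4 again being the last. That was 16.8 times the median of the other 34 mice (0.470 CPM) and 7.29 times the highest of them, again GS1, at 1.08 CPM. Median levels in the other groups lay between 0.390 CPM in HttQ111/+ mice on control ASO and 0.541 CPM in Htt+/+ mice on saline, with single mice from 0.161 to 1.08 CPM. All groups overlapped.

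Clic6 was readily detected in every striatum, at a median close to that of Ttr in CPM, and had the smallest ratio in GU4 of the 6 genes. The 5 Htt+/+ mice on control ASO had 24.7, 26.2, 27.2, 28.3 and 47.2 CPM. GU4 was 1.71 times the median of the others (27.6 CPM) and 1.45 times the highest of them, while the 34 other mice stayed between 21.0 and 32.6 CPM. Their coefficient of variation was 7.28%, against 58.5% for Ttr. Group medians without GU4 differed by less than that spread, from 26.7 CPM in Htt+/+ mice on control ASO to 28.3 CPM in HttQ111/+ mice on saline.

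Folr1, the folate receptor, was low in every mouse but GU4. On control ASO the 5 Htt+/+ mice had 0.750, 0.931, 1.02, 1.04 and 10.6 CPM, so that GU4 was 13.0 times the median of the other 34 mice (0.813 CPM) and 8.27 times the highest of them. The other groups had medians from 0.774 CPM (HttQ111/+ on control ASO) to 0.910 CPM (HttQ111/+ on saline), with single mice from 0.384 to 1.28 CPM and full overlap.

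Kl stood at 4.40, 5.39, 5.62, 6.24 and 58.0 CPM in the 5 Htt+/+ mice on control ASO, the last again being GU4. The ratio of GU4 to the median of the other 34 mice (5.53 CPM) was 10.5, and to the highest of them 6.46. Across the other groups single mice lay between 3.43 and 8.99 CPM, and group medians between 5.06 CPM in HttQ111/+ mice and 6.68 CPM in Htt+/+ mice, both on saline. No group was separate from another.

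Otx2, the transcription factor, had 0.901, 1.22, 1.69, 2.02 and 6.06 CPM in the 5 Htt+/+ mice on control ASO. GU4 was 4.86 times the median of the other 34 mice (1.25 CPM) and 3.0 times the highest of them, which was a mouse of the same group. In Htt+/+ mice Otx2 ran from 1.31 through a median of 1.40 to 1.68 CPM on saline and from 0.887 through 1.1 to 1.74 CPM on Htt ASO. HttQ111/+ mice had 0.764 through 1.25 to 1.32 CPM on saline, 0.690 through 0.916 to 1.86 CPM on control ASO, and 0.750 through 1.17 to 1.47 CPM on Htt ASO. The 2 saline groups came nearest to separating, with the highest HttQ111/+ mouse just above the lowest Htt+/+ mouse, but without GU4 none of the 15 pairs of groups was free of overlap for any of the 6 genes.

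Per length, using the exonic length of each gene in GENCODE M21, the order of levels among the 34 mice other than GU4 was Ttr, Clic6, Kl, Folr1, Otx2 and Aqp1. Their medians were 24.4, 7.05, 0.593, 0.354, 0.295 and 0.179 CPM per kb. Ttr and Clic6 did not overlap (lowest Ttr 8.35, highest Clic6 8.32 CPM per kb) and neither reached the other 4, whereas Kl, Folr1, Otx2 and Aqp1 each overlapped their neighbours in the order. In GU4 the order was Ttr at 1229, Clic6 at 12.1, Kl at 6.22, Folr1 at 4.61, Aqp1 at 3.0 and Otx2 at 1.43 CPM per kb, so Aqp1 and Otx2 changed places. Ttr made up 91.8% of the summed CPM of the 6 genes in GU4 and a median of 45.2% in the others, and the sum itself was 1587 CPM in GU4 against 43.3 to 148.6 CPM.

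Most of the same genes also moved together among the 34 mice that GU4 leaves. Pearson correlations of each gene's log2 CPM with the mean of the other 5 were 0.77 for Kl, 0.75 for Ttr, 0.71 for Aqp1, 0.61 for Folr1, 0.51 for Otx2 and 0.33 for Clic6. Spearman's rho was 0.77, 0.77, 0.78, 0.58, 0.55 and 0.24 in the same order. With the 2 mice farthest from the median of the others' mean left out, r was 0.74, 0.73, 0.72, 0.54, 0.55 and 0.21. Clic6 followed the set least, with its closest partner Kl (r = 0.62) and its most distant Otx2 (r = 0.06). These are descriptions over 34 mice that share the scaling to library size, and they belong to the reading that chose the genes.

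The plot of each gene against Ttr compares GU4 with the line fitted to the other mice. GU4 lay above that line for Folr1 and below it for the other 4 genes. For every 1000 CPM of Ttr above the median of the other mice, GU4 had 36.8 CPM of Kl above its median, and the line fitted to the 34 others rose by 42.8 CPM (standard error 7.52). For Clic6 the values were 13.7 and 15.4 CPM (standard error 15.6), for Aqp1 5.18 and 6.20 CPM (standard error 0.997). For Folr1 they were 6.84 and 4.51 CPM (standard error 1.56), and for Otx2 3.37 and 5.11 CPM (standard error 2.48). With the 2 mice farthest from the median of Ttr left out, the line rose by 52.5 CPM for Kl, 16.6 for Clic6, 5.20 for Aqp1, 4.48 for Folr1 and 7.90 for Otx2. Over the 34 mice the slope of Clic6 was no larger than its own standard error. Extended to where Ttr is absent, the lines of the 34 mice stood at 26.8 CPM for Clic6 (median 27.6 CPM) and 4.25 for Kl (5.53). For Otx2 they stood at 1.03 (1.25), for Folr1 at 0.675 (0.813) and for Aqp1 at 0.254 (0.470). The lines reach far beyond the 34 mice, whose Ttr ended at 110.9 CPM.

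**Figure D2:**
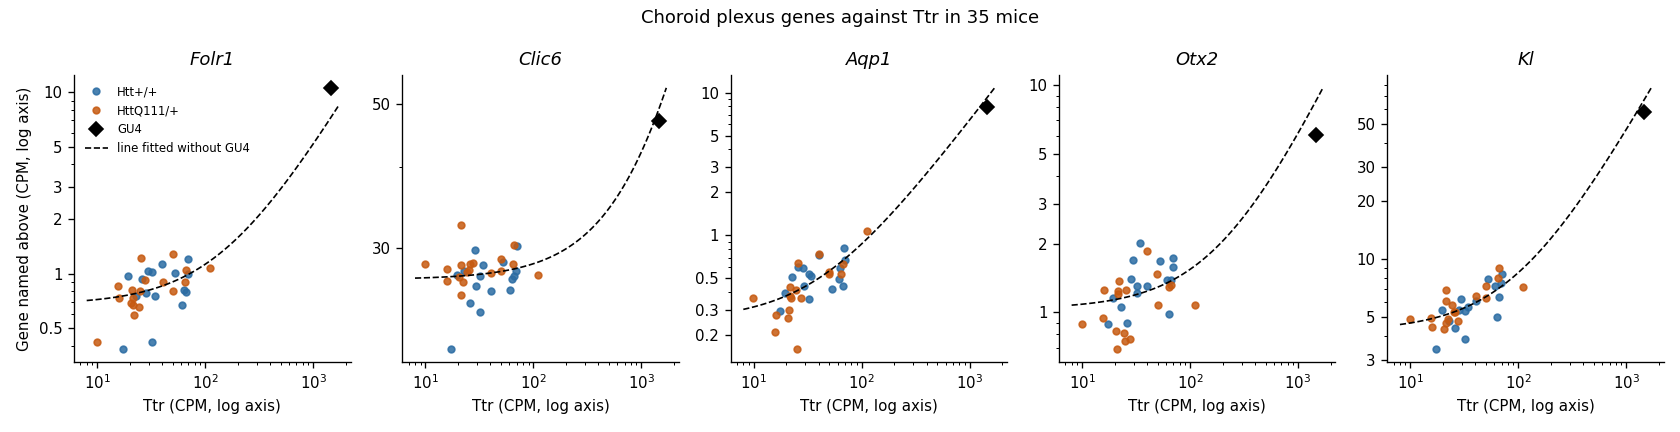
Level of 5 genes against Ttr in 35 mice, both in CPM on log axes (blue, Htt+/+; orange, HttQ111/+; black diamond, GU4; dashed, straight line fitted to the 34 other mice, curved by the log axes). GU4, at 1457 CPM of Ttr, lies above the line for Folr1 and below it for the other 4 genes, by the largest ratio for Otx2.

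How far GU4 stood apart was read against all genes. In GU4, 38 of the 17639 tested genes (0.215%) were at least 2-fold above every other mouse. They held 5 of the 6 choroid plexus genes, all but Clic6. They also held 15 of the 24 tested genes in a list of 30 other choroid plexus markers. Of the rest of the 38, 17 were in none of the gene lists read here, and 1 (Rdh5) was only in another list. All 24 tested markers were highest in GU4. Their median fold over the other mice was 4.84, taken from log2 CPM with a prior count of 2. The ratios of single genes are of plain CPM. Only 4.00% of all tested genes were highest in GU4. Since the members were selected on this contrast, nothing is read from their own count, and the marker list was written with earlier results of these data known.

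The 10 genes with the largest ratio in GU4, chosen by that ratio, included Ttr and Aqp1 and 7 of the listed markers. Cldn2, a claudin of leaky epithelial tight junctions, was at 7.84 CPM in GU4 and at most 0.525 CPM elsewhere, 38.7 times the median. Kcne2, a potassium channel subunit, was at 7.01 CPM against at most 0.475 CPM, 29.3 times the median. Mfrp, a membrane protein with a frizzled-type domain, had 26.1 CPM against at most 2.27 CPM, and C230095G01Rik, the older symbol of Tmem72, 5.61 against at most 0.510 CPM. F5, coagulation factor V, had 22.7 CPM against at most 3.53 CPM, and Steap1 had 2.51 against at most 0.509 CPM. Sostdc1, a secreted inhibitor of BMP and Wnt signals, had 8.10 against at most 0.934 CPM. The remaining one, AK049248, is known in the table only by a transcript identifier (5.39 CPM against at most 0.444 CPM). The most abundant marker, Enpp2, the secreted enzyme autotaxin, was at 910 CPM in GU4 and 255.0 to 343 CPM in the others.

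Markers of other cell types at the ventricle and of neighbouring tissue did not stand apart in the same way. Of 9 tested ependymal markers, the ciliated cells that line the ventricle wall, 0 were highest in GU4, and their sum was 112.1 CPM against 88.7 to 145.4 CPM in the others. Foxj1, the ciliogenesis factor among them, was at 12.7 CPM in GU4 and 9.71 to 18.5 CPM elsewhere. Of 8 endothelial markers, 0 were highest, with a sum of 343.9 CPM against 319.7 to 495.5 CPM, and 2 were below every other mouse, Slc2a1 (143.3 against at least 143.4 CPM) and Esam, which was listed at 0 in GU4. Of 10 markers of meninges and fibroblasts, 3 were highest in GU4 (Dcn, Lum and Ogn), and their sum was 35.7 CPM against 25.0 to 33.0 CPM.

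Sums for tissue next to the striatum lay inside the range of the other mice. They were 24.3 CPM for 7 markers of cortical excitatory neurons (18.2 to 89.3 CPM elsewhere) and 57.3 CPM for 8 markers of thalamus and habenula (47.5 to 65.4 CPM). For 3 red blood cell transcripts the sum was 144.8 CPM against 18.6 to 426.5 CPM. What part any of these cells had in the level of the 6 genes was not tested.

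**Figure D3:**
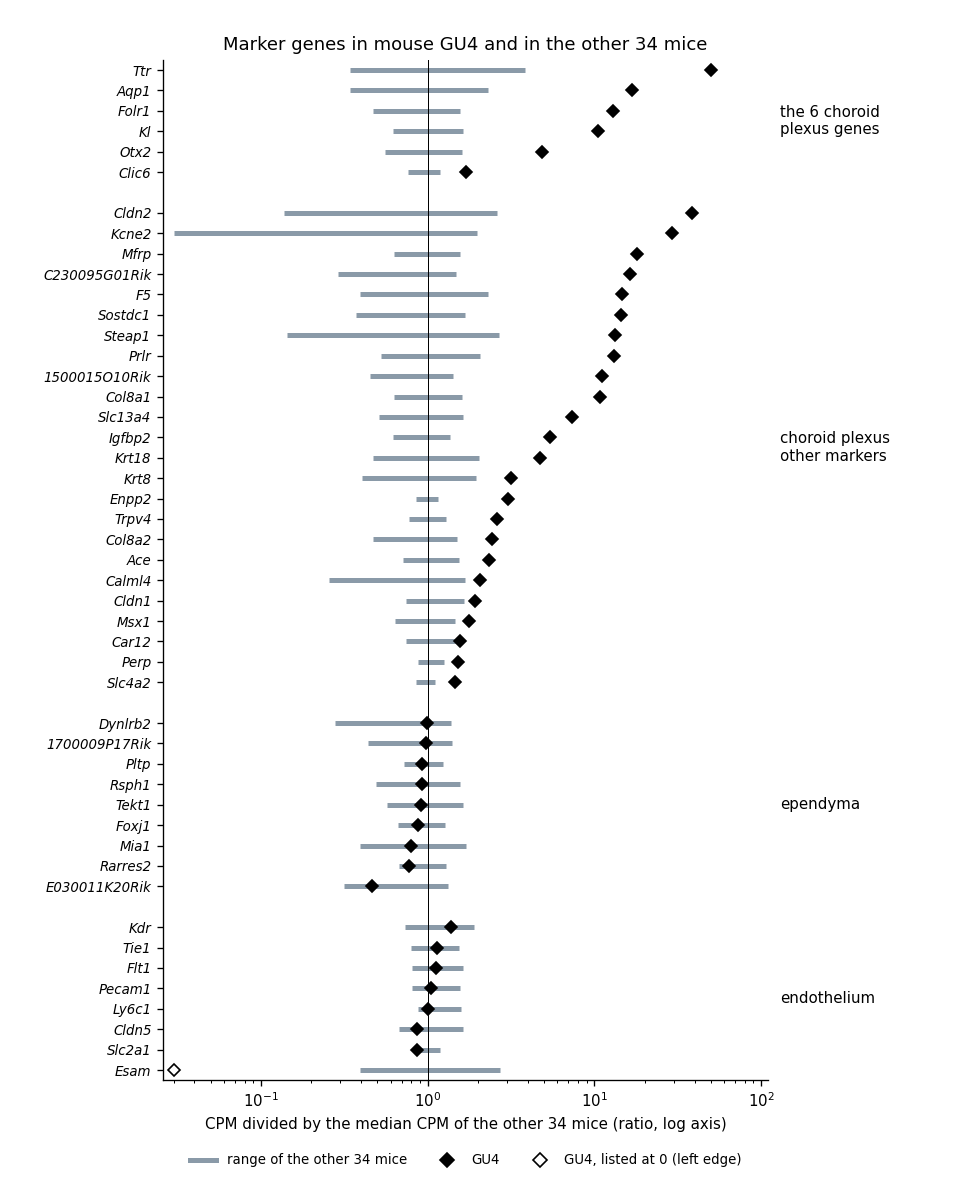
CPM of single marker genes divided by the median of the other 34 mice, on a log axis, for GU4 (diamonds) and for the range of the other mice (grey bars; the bar of Kcne2 begins at 0, off the axis). All 6 genes and all 24 other choroid plexus markers lie right of the bars, from 1.46 to 50.3 times the median, while the 9 ependymal markers lie inside them. The other 34 mice are of both genotypes. Without GU4, 3 of the 24 markers were called lower in HttQ111/+ mice and 1 higher, beside 38.6% of all genes. Car12 was at 122.1 CPM in GU4, with medians of 106.7 CPM in the other Htt+/+ mice and 65.1 CPM in HttQ111/+ mice. Ace was at 61.7 CPM in GU4, with medians of 32.9 and 23.3 CPM.

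Genes of fluid secretion, the main job of the choroid plexus, were read next. In a list of 17 genes of secretion and acid-base transport, 16 were tested and 7 of them were highest in GU4, of which 3 (Kcne2, Car12 and Slc4a2) also stand in the list of other choroid plexus markers. Among its most abundant genes, all widely used in brain, Atp1b1, a subunit of the sodium pump, was at 924 CPM in GU4 and at a median of 966 CPM in the others, and the bicarbonate transporter Slc4a4 was at 384 against 331 CPM. The carbonic anhydrase Car2 was at 239.5 against 192.6 CPM. None of these 3 lay outside the range of the other mice. Kcne2 alone of this list was at least 2-fold above every other mouse.

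In a list of 14 genes of thyroid hormone, retinoid and folate handling, 2 were highest in GU4. Rdh5, a retinol dehydrogenase, was at 7.56 CPM against at most 2.81 CPM. Folr2, the second folate receptor, was at 0.279 CPM in GU4, inside the 0 to 0.449 CPM of the other mice, unlike Folr1.

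**Figure D4:**
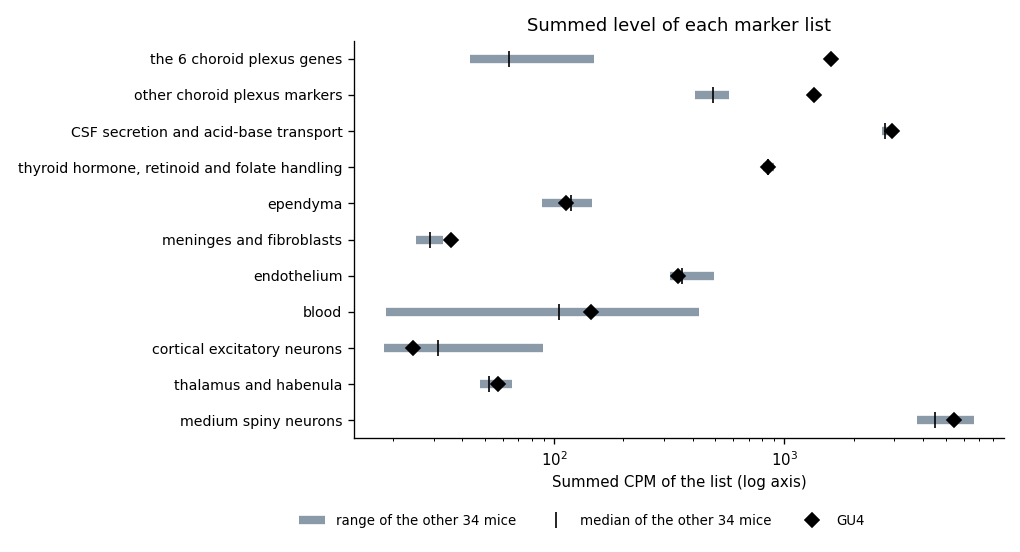
Summed CPM of each gene list, on a log axis, in GU4 (diamond) and in the other 34 mice (grey, lowest to highest; tick, median). GU4 lies far outside the others for the 6 genes (1587 against at most 148.6 CPM) and the other choroid plexus markers (1346 against at most 576 CPM), and just outside them for meninges and fibroblasts and for secretion and transport.

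By likeness, measured as Pearson's r of a gene's log2 CPM with the mean of the 6, the 10 most like genes over all 35 mice were 1500015O10Rik (0.94), Cldn2 (0.91), Sostdc1, Enpp2, Mfrp, Prlr, Wdr86, Igf2, F5 and Slc13a4 (0.84). Over the 34 mice without GU4 they were 1500015O10Rik (0.81), Cldn2 (0.72), Wdr86 (0.71), Sostdc1 (0.69), F5 (0.61), Steap1, 1200003I07Rik, Krt77, Kcne2 and Ccdc135 (0.55). Both sets of 10 had 5 genes in common, 1500015O10Rik, Cldn2, F5, Sostdc1 and Wdr86. 1500015O10Rik is the older symbol of Ecrg4, which encodes a secreted peptide precursor, and it led both times, with 12.4 CPM in GU4 and a median of 1.12 CPM in the others.

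The first comparison of groups was that of genotype, which asks whether the mutant allele changed these transcripts in the striatum. The comparisons below were made with limma after voom over all 17639 genes, and the adjusted p is that of Benjamini and Hochberg over all of them, with a threshold of 0.05. Over the 3 treatments, HttQ111/+ and Htt+/+ mice differed in 1 of the 6 genes, beside 39.8% of all genes tested (7024). Otx2 was lower in HttQ111/+ mice, where the difference on the log2 scale was −0.44 with a standard error of 0.18 (adjusted p = 0.0487).

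That call was lost without GU4. Without GU4, Otx2 was at 0.887 through 1.35 to 2.02 CPM in 16 Htt+/+ mice and at 0.690 through 1.14 to 1.86 CPM in 18 HttQ111/+ mice, a log2 difference of −0.30 with standard error 0.13 and adjusted p = 0.0600. None of the 6 genes was then called, beside 38.6% of all genes. With GU4 in the data, edgeR's quasi-likelihood test also called Ttr (−1.36) and Aqp1 (−0.83), besides Otx2. It called about as many of all genes as limma did with all mice (39.8%). Leaving out each of the 35 mice in turn, Otx2 was called in 12 fits and not called in 23, with adjusted p from 0.0145 to 0.0785. Mice also differed in the number after L in their library names, taken as sequencing lane, and lane 7 held only HttQ111/+ mice. Within the lanes that held both genotypes, and without GU4, the difference in mean log2 CPM of Otx2 (HttQ111/+ minus Htt+/+) was −0.12, −0.33, 0.23, −0.25 and −0.69 in lanes 3, 4, 5, 6 and 8, so 4 of 5 lanes had the direction of the whole. With lane as a covariate Otx2 was at −0.43 with all mice (adjusted p = 0.122), and at −0.20 without GU4 (adjusted p = 0.301), and was not called.

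The other 5 genes did not pass the threshold for genotype, and their values moved with GU4. Ttr differed by −0.70 on the log2 scale (standard error 0.41, adjusted p = 0.177) with all mice and −0.32 (0.25, adjusted p = 0.338) without GU4. Aqp1 had −0.55 (0.31, adjusted p = 0.158) and −0.29 (0.19, adjusted p = 0.239), and Folr1 −0.28 (0.27) and −0.04 (0.14). Kl changed sign, from −0.19 (0.23) to 0.05 (0.11). Clic6 was at 0.01 (0.06) and 0.07 (0.04, adjusted p = 0.138). The median over the 6 genes was −0.36 with all mice and −0.16 without GU4, against 0.0037 and 0.0043 over all genes.

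Within treatments, 1 of the 6 genes was called on control ASO, the treatment of GU4, beside 18.5% of all genes. This was Otx2, at −0.89 (standard error 0.31, adjusted p = 0.0420). Without GU4 its value was −0.45 (0.23, adjusted p = 0.199), and 0 of the 6 genes were called, beside 15.8% of all genes. On saline 0 of the 6 genes were called, beside 17.4% of all genes, and on Htt ASO 0 of 6, beside 21.2%. At an unadjusted p under 0.05, 0 of the 6 passed on saline, beside 5069 of all 17639 genes, and 0 on Htt ASO, beside 5779. On control ASO 4 of 6 passed with GU4 in the group, beside 5438 genes. Without GU4, 0 of the 6 passed there, beside 5090 of 17709 genes.

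**Figure D5:**
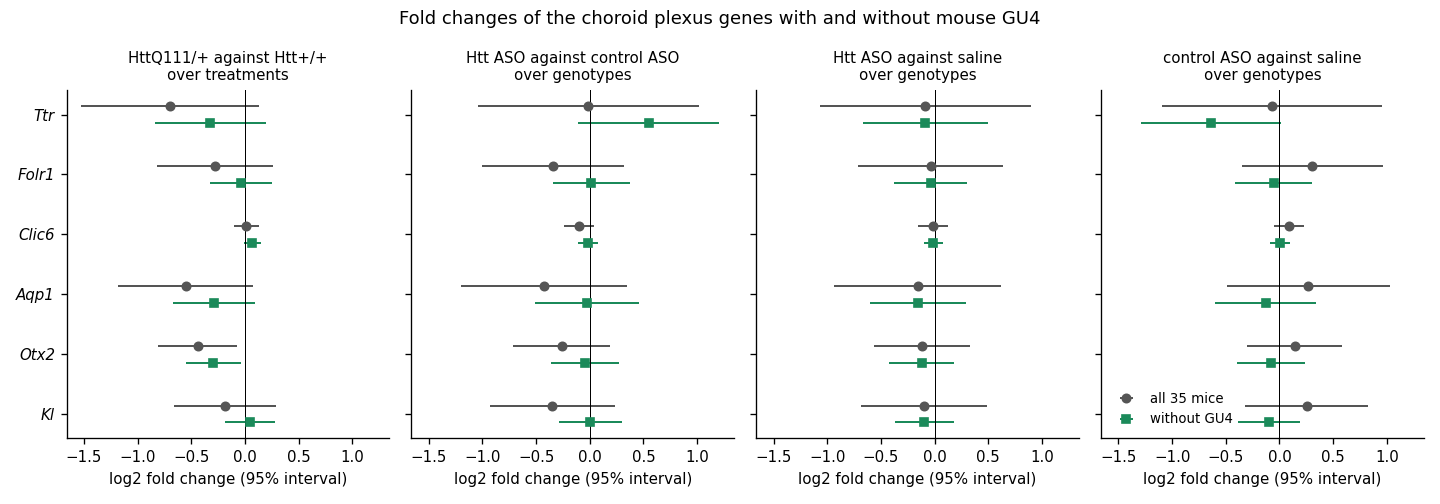
Log2 fold changes with 95% intervals from limma for the 6 genes in 4 comparisons, with all 35 mice (grey circles) and without GU4 (green squares). Leaving out GU4 narrows every interval, and the Ttr value for Htt ASO against control ASO moves from −0.01 to 0.55.

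Treatments were compared to ask whether peripheral injection of Htt ASO changed the striatum. None of the 6 genes was called for Htt ASO against control ASO over both genotypes (0.935% of all genes called), for Htt ASO against saline (1.47%), or for control ASO against saline (0% of genes called). In the last of these limma called 0 genes and 1357 had an unadjusted p under 0.05, of which none was one of the 6. Without GU4 the shares of all genes called were 0.937%, 1.50% and 0%, with 1539 genes at an unadjusted p under 0.05 for control ASO against saline, and again 0 of the 6 genes were called or had such a p.

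Ttr had the widest intervals. For Htt ASO against control ASO its log2 fold change was −0.01 (95% interval −1.04 to 1.02) with all mice and 0.55 (95% interval −0.11 to 1.21, adjusted p = 0.886) without GU4. With all mice edgeR gave −0.92 and DESeq2 −0.91 for it. For control ASO against saline limma gave −0.07 (standard error 0.50) with all mice and −0.64 (standard error 0.32, adjusted p = 0.587) without GU4, whereas edgeR and DESeq2 both gave 0.99 with all mice, in the opposite direction. Both comparisons share the control ASO mice. GU4 does not enter the means of Htt ASO against saline but enters the shared variance, and Ttr was at −0.09 (standard error 0.48) with all mice and −0.09 (standard error 0.29) without. For the other 5 genes the log2 fold changes of this comparison without GU4 lay between −0.16 (Aqp1) and −0.01 (Clic6). A miss of the threshold leaves differences inside these intervals possible.

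Within each genotype the treatments gave no call among the 6 genes either. In Htt+/+ mice the shares of all genes called were 0.295% for Htt ASO against control ASO, 0.726% for Htt ASO against saline and 0% for control ASO against saline, where 2080 genes had an unadjusted p under 0.05. With GU4 in the control ASO group, 2 of the 6 reached such a p in the first comparison, beside 916 of all 17639 genes. They were Folr1 (−0.96, standard error 0.44) and Otx2 (−0.68, standard error 0.30), for Htt ASO against control ASO. For control ASO against saline, Folr1 alone did (0.94, standard error 0.44), beside the 2080 genes. Without GU4, 0 of the 6 reached such a p in either comparison, beside 836 and 1901 of 17709 genes. In HttQ111/+ mice, a set that does not hold GU4, the shares of all genes called were 0.357%, 0.556% and 0%. The last had 512 genes at an unadjusted p under 0.05. The interaction of genotype with treatment gave 0% of genes called for Htt ASO against control ASO (713 genes at an unadjusted p under 0.05) and 0% for Htt ASO against saline (973 genes), and 0 of the 6 genes in both. The largest value among the 6 in HttQ111/+ mice was that of Ttr for Htt ASO against control ASO, 0.85 (standard error 0.75, adjusted p = 0.999), and without GU4 in the fit 0.85 (standard error 0.44, adjusted p = 0.815).

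The other choroid plexus markers were read beside the 6. For genotype, 4 of the 24 were called, beside 39.8% of all genes, and they were lower in HttQ111/+ mice (Prlr, Ace, Car12 and Msx1). Without GU4, 4 were again called, beside 38.6% of all genes, with 3 lower (Prlr, Ace and Car12) and 1 higher (Cldn1). Their medians were −0.28 with all mice and −0.11 without GU4. Prlr, Ace and F5 are described here after their values were seen. Prlr, the prolactin receptor, was at 1.16 through 1.71 to 2.85 CPM in 16 Htt+/+ mice and at 0.720 through 1.09 to 1.68 CPM in 18 HttQ111/+ mice, without GU4. The groups overlapped, and the log2 difference was −0.56 (standard error 0.11, adjusted p = 0.000163), or −0.78 (standard error 0.26, adjusted p = 0.0141) with GU4. Ace, angiotensin-converting enzyme, which striatal neurons also make, fell by 0.50 on the log2 scale without GU4 (adjusted p = 2.31e-08).

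Without GU4, 0.937% of all genes were called for Htt ASO against control ASO and 1.50% for Htt ASO against saline. F5 was the only marker of the 24 called for a treatment, and only without GU4. It was at 0.612 through 1.36 to 2.14 CPM in 12 mice on saline, 0.690 through 1.32 to 1.70 CPM in 10 mice on control ASO, and 1.36 through 2.20 to 3.53 CPM in 12 mice on Htt ASO, GU4 left out. The mice on Htt ASO were higher on the whole but overlapped both others. Htt ASO against control ASO gave 0.82 (standard error 0.18, adjusted p = 0.0162) and Htt ASO against saline 0.72 (standard error 0.17, adjusted p = 0.0148). With GU4 in the fit the same values were 0.42 (0.34, adjusted p = 0.960) and 0.72 (0.34, adjusted p = 0.515). The 6 choroid plexus genes did not share this pattern of calls.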

How the data were processed

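The authors had stranded mRNA libraries of striatal RNA sequenced as paired reads, aligned them to the MGSCv37 mouse transcriptome with Bowtie 0.12.9 and estimated reads per gene with RSEM 1.1.18, and deposited the expected counts without scaling. The unrounded expected counts were filtered with filterByExpr over the 6 groups (minimum count 10, minimum total 15), scaled by TMM in edgeR 4.0.16 and tested with voom and limma 3.58.1 in R 4.3.3, with a mean per group and Benjamini-Hochberg adjustment over 17639 genes. Log2 CPM used a prior count of 2, and intervals are 95%. The alternatives edgeR (quasi-likelihood) and DESeq2 1.42.0 took rounded counts. Groups came from the sample labels, with ASO1 taken as Htt ASO. The code was tested on simulated data. No pair of mice within a group agreed within sampling noise (85 pairs). P-values measure the spread between mice.

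The members, gene lists and tests were chosen with earlier results of these data known. The genes named are the 7 members, the 10 genes most like their mean, with and without GU4, the 10 genes of largest ratio in GU4 among those at least 2-fold above every other mouse, and at most 4 genes of each list, most abundant first. A few genes that the rule names are not reported here. Genes of a list outside this rule were chosen after their values were seen. Exonic lengths came from GENCODE M21 on GRCm38, and sequences from RefSeq on GRCm38.p6. The alternatives tried are in the closing part.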

Additional observations from a re-analysis of the deposited data

Results flagged for a closer look

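In groups of 4 to 10 mice, a mouse was singled out where its gap to the next mouse, divided by the range of its group, exceeded Dixon's critical value on log2 CPM. In Htt+/+ mice on control ASO, the group of GU4, GU4 was the highest mouse for Ttr (0.932), Aqp1 (0.902), Folr1 (0.881), Kl (0.865) and Clic6 (0.790). These 5 belong to the contrast that chose the genes and are a description. In the 30 gene and group combinations of the other groups, 2 passed, where chance gives about 1 in 20. Both were for Clic6: the lowest of the Htt+/+ mice on Htt ASO, GW4 at 21.0 CPM (0.673), and the highest of the HttQ111/+ mice on control ASO, GW1 at 32.6 CPM (0.694). Otx2 did not pass in any group.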

How the results depend on the processing

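No paired analysis was possible because the labels give no replicate numbers or litters that tie mice of different groups. For genotype, 1 of the 6 genes was called, beside 39.8% of all genes. With edgeR's quasi-likelihood test 3 of the 6 were called, beside about as many of all genes. Library totals, no filter, lane as a covariate, and leaving out GU4 each called 0 of the 6. So did leaving out GU4 with lane as a covariate (chosen after seeing the data). Of all genes, library totals called more than the main fit. No filter, lane as a covariate and leaving out GU4 (38.6%) called fewer. Leaving out each mouse in turn gave 0 to 1 of the 6. The cause was not tested. Otx2 kept its direction in these, at −0.40 with library totals, −0.44 with no filter, −0.43 with lane as a covariate and −0.20 without GU4 and with lane. DESeq2 gave an adjusted p for 2 of the 6 genes, Clic6 and Otx2, and a filter at a mean of 1 CPM left Aqp1 untested. Among genes with an adjusted p, the 3 treatment comparisons gave no call in the alternatives run.

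The fold changes (log2) that changed sign were all uncalled. Without GU4 they were 0.045 for Kl by genotype, 0.55, 0.015 and 0.0035 for Ttr, Folr1 and Kl on Htt ASO against control ASO, and −0.054, −0.13, −0.076 and −0.10 for Folr1, Aqp1, Otx2 and Kl on control ASO against saline. With lane as a covariate Ttr was at 0.13 for Htt ASO against control ASO, 0.22 for Htt ASO against saline and 0.10 for control ASO against saline, and for Htt ASO against saline Folr1 was at 0.14, Clic6 at 0.016, Aqp1 at 0.033 and Kl at 0.078. edgeR and DESeq2 gave −0.00145 and −0.0054 for Clic6 by genotype, 0.072 and 0.077 for Ttr on Htt ASO against saline, and 0.99 and 0.99 for Ttr on control ASO against saline. With sample quality weights Ttr was at 0.0058 for Htt ASO against control ASO.

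Leaving out each mouse in turn, the values that changed sign ran as follows. By genotype it was Clic6 from −0.0088 to 0.070 and Kl from −0.27 to 0.045, and for Htt ASO against control ASO Ttr from −0.18 to 0.55, Folr1 from −0.47 to 0.015 and Kl from −0.47 to 0.0035. For Htt ASO against saline it was Ttr from −0.24 to 0.030, Folr1 from −0.13 to 0.057 and Clic6 from −0.031 to 0.019, and for control ASO against saline Ttr from −0.64 to 0.094, Folr1 from −0.054 to 0.44, Aqp1 from −0.13 to 0.40, Otx2 from −0.076 to 0.27 and Kl from −0.10 to 0.37.

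Aqp1 had as few as 6 counts and Folr1 13 in a library, which limits what the comparisons of these genes can show. The log2 ratio of GU4 to the median of the other mice stayed between 5.56 and 5.76 for Ttr and between 0.75 and 0.82 for Clic6 under library totals, DESeq2 size factors, a prior count of 0.5 and the other mice of its group or lane as reference, and was above 2 for the other 4 genes in all of these.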
